A study of Homo sapiens with 4 samples.

Results

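The genes described here encode the machinery that licenses, fires and copies replication origins: 47 genes taken by symbol from a table of 58735 genes, each of which was found once. They comprise the origin recognition complex (ORC), the licensing factors CDC6 and CDT1 with geminin, the MCM helicase family, the firing factors, GINS, the replicative polymerases, the sliding clamp and its loader, the single-strand binder RPA, and factors that mature the copied strands and rebuild chromatin behind the fork. Their levels come from RNA sequencing of Myla, a T cell line established from mycosis fungoides (the commonest cutaneous T cell lymphoma), given lentiviral vectors. The shFOXM1 cells (genotype label FOXM1 knockdown) received hairpin RNA against the transcription factor FOXM1, and the shControl cells (genotype label WT) a scrambled hairpin. Each group had 2 libraries, numbered 1 and 2.

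Both groups were grown with 10% serum for 24 h before transduction with 10 uL of lentivirus medium per 1 mL of culture, and were collected 72 h after a medium change made at 24 h. The labels name no selection for transduced cells, and they do not say whether shFOXM1 1 and shFOXM1 2 carried one hairpin or different ones. Nor do they say whether the cultures were transduced apart, so a p-value here weighs differences against library-to-library variation that could be purely technical. Levels are in FPKM, fragments scaled to gene length and library depth. The targeted gene, FOXM1, gave 26.5 and 27.6 FPKM in the shControl pair against 9.27 and 5.59 FPKM in the shFOXM1 pair (library 1 first, here and throughout), so the groups did not overlap, the shFOXM1 mean was 27.4% of shControl, and the labels held.

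The libraries held 14147084 to 15017728 reads each, as recovered from the deposited values. Of 8 T cell markers 6 were above the level tested, their sum being 497 and 502 FPKM in shControl and 518 and 528 FPKM in shFOXM1 (lowest and highest library), while CD4 was at 0 in all 4 libraries and CD3E at no more than 0.138 FPKM. Sums over 5 markers each were 0.273 to 0.8 FPKM for B cells, 8.47 to 13.5 FPKM for myeloid cells, almost all of it CSF1R, 2.61 to 4.51 FPKM for fibroblasts and endothelium, almost all of it COL1A1, and 8.25 to 11.1 FPKM for keratinocytes, almost all of it KRT10. In these bulk libraries fewer cells in S phase and less RNA per cell cannot be told apart.

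A human cell copies its genome from many origins. In G1 phase ORC marks the origin, CDC6 and CDT1 load the hexamer of MCM2 to MCM7 on it, and geminin blocks CDT1 afterwards so that no origin is used again in the same cycle. In S phase the kinase CDC7 with DBF4, MCM10, CDC45 and GINS turn the loaded helicase into a moving fork, where the polymerases alpha, delta and epsilon, PCNA with its loader RFC, and RPA make the new strands. Many of these genes are transcribed at the G1 to S boundary through E2F factors, whereas FOXM1 is known mainly for genes of G2 and mitosis.

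RefSeq promoter windows (GRCh38.p14, 250 bases before to 50 after each start) were at hand for 41 of the 47 genes; MCM4, MCM5, GINS4, POLD3, RPA2 and RPA3 were not matched. An E2F-type match, meaning TTTCCCGC, TTTGGCGC, TTTCGCGC or TTTGCCGC on either strand (patterns can overlap on opposite strands), was found in 20 of these 41 genes, or 48.8%, against 3.99% of all 27305 genes with a window and 7.01% of the 8113 among them that were tested here. The 180 bases before the start are printed for 5 genes with an E2F-type match and low levels in both shFOXM1 libraries (MCM3, POLA1, LIG1, PCNA and RFC3) and for POLA2, which holds such a match but whose groups overlapped. Capitals mark the E2F-type match, each line reads 5′ to 3′ on the gene's strand, and the windows are chr6:52284743-52284922 (minus, MCM3), chrX:24693738-24693917 (plus, POLA1), chr19:48170345-48170524 (minus, LIG1), chr20:5126623-5126802 (minus, PCNA, the first of its 2 windows), chr13:33817969-33818148 (plus, RFC3) and chr11:65261782-65261961 (plus, POLA2).
MCM3: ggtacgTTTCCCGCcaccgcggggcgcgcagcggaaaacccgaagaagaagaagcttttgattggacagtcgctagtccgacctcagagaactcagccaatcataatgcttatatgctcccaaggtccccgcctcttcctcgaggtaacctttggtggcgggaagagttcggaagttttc
POLA1: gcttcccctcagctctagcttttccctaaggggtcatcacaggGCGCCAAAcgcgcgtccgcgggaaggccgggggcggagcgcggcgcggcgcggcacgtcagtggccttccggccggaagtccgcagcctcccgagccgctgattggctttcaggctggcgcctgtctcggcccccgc
LIG1: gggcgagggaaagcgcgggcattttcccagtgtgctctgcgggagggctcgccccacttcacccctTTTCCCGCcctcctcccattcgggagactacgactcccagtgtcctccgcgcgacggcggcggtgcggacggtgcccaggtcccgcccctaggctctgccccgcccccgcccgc
PCNA: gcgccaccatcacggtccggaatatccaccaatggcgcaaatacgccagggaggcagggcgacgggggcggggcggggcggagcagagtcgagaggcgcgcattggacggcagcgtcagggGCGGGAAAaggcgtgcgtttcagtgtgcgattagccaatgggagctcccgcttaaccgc
RFC3: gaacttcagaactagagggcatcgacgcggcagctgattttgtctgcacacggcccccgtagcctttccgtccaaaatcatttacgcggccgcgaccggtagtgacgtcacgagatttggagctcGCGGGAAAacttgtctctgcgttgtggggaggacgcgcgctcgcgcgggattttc
POLA2: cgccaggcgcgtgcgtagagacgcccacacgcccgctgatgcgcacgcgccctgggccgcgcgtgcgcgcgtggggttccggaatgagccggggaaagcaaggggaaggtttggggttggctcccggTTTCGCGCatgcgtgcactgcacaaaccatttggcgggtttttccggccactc

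The match began 174 bases before the start in MCM3, which has another at 4 bases before it, 137 in POLA1, 114 in LIG1, 59 in PCNA, 55 in RFC3 and 53 in POLA2. A match describes letters and is not a site shown to be bound.

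**Figure D1:**
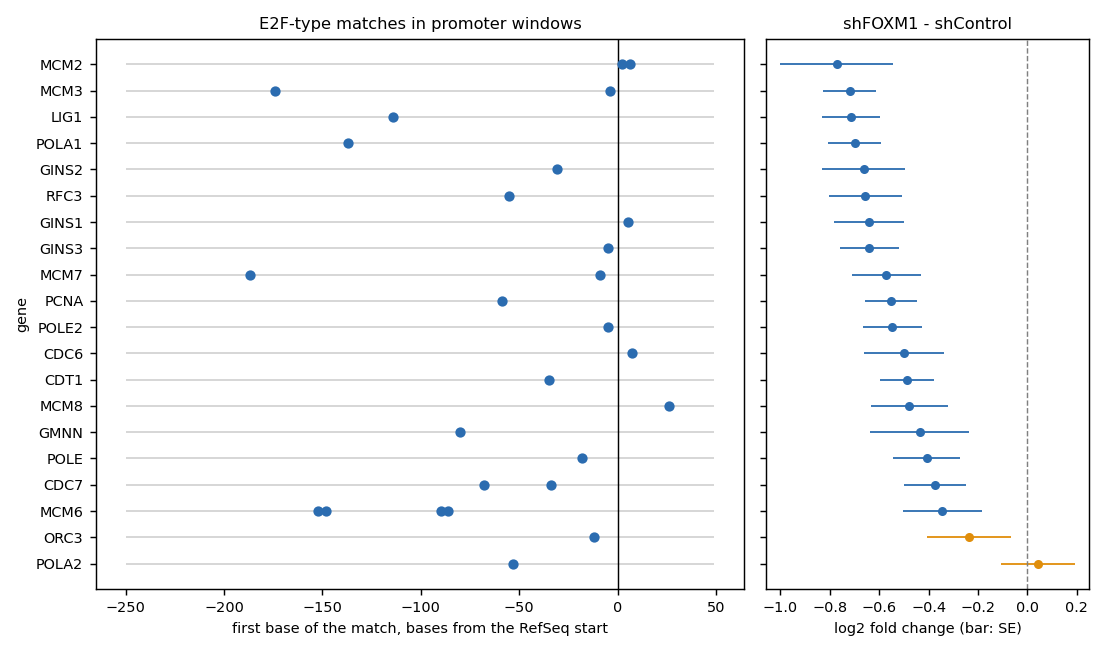
Left, first base of each E2F-type match in the promoter windows of the 20 genes that hold one, in bases from the RefSeq start (grey line: the window). Right, the fitted log2 fold change of the same gene with its SE, blue where both shFOXM1 values were under both shControl values and orange where the groups overlapped: only ORC3 and POLA2 are orange.

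The 20 genes with an E2F-type match had a median log2 fold change of -0.55, from -0.77 (MCM2) to 0.04 (POLA2), and the 21 without one a median of -0.46, from -0.77 (ORC1) to 0.12 (ORC5). In each of these sets 18 genes had both shFOXM1 libraries below both shControl libraries, against 25.9% of all genes tested. The difference between the sets was not tested. The CCAAT box (CCAAT, either strand) was found in 23 of the 41 genes, or 56.1%, against 39.7% of all genes with a window and 43.6% of those tested. TTTGAA or TTCGAA on either strand, the letters of the CHR element of late cell cycle genes, was found in 3 (MCM6, DBF4 and POLE3), or 7.32% against 19.5% of all and 15.03% of tested genes, and the forkhead letters TGTTTAC or their complement only in MCM7, or 2.44% against 4.19% of all and 3.35% of tested genes.

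Across the whole set, replication genes were at lower levels in shFOXM1. The mean log2 level was lower in shFOXM1 for 44 of 47 genes, against 50.1% of the 12033 genes tested, and ORC4, ORC5 and POLA2 were the 3 with a higher mean, though the sign for ORC4 and POLA2 turned when single libraries were left out. The median log2 fold change of the 47 was -0.48, on the log2(FPKM + 1) scale, against 0.00 over all genes tested. Each gene's shFOXM1 mean as a share of its shControl mean had a median of 69.6% over the 47. Both shFOXM1 libraries were under both of shControl for 40 of the 47 genes, or 85.1%, against 25.9% of all genes tested. Both lay above in 0 of the 47, against 27.3% of all genes tested.

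No single gene passed the test. Limma with Benjamini-Hochberg adjustment over the 12033 genes called 0 of the 47 lower and 0 higher, against 0% of all genes tested, and the adjusted p of the 47 ran from 0.173 to 0.968. At an unadjusted limma p under 0.05, 34 of the 47 were lower and 0 higher, against 8.99% of all genes tested that were lower and 8.82% that were higher. Fewer of the 47 reached that p when 1 shControl library was left out, in fits whose spread comes from the shFOXM1 pair alone. The median log2 fold change of the 47 was then -0.47 without shControl 1 and -0.52 without shControl 2. With shFOXM1 1 left out the median log2 fold change of the 47 was -0.59, and with shFOXM1 2 left out it was -0.38. The spread in those fits comes from the control libraries alone, so their calls are not weighed here. Over all genes tested, the log2 difference between libraries had an SD of 0.263 in the shControl pair and 0.424 in the shFOXM1 pair.

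**Figure D2:**
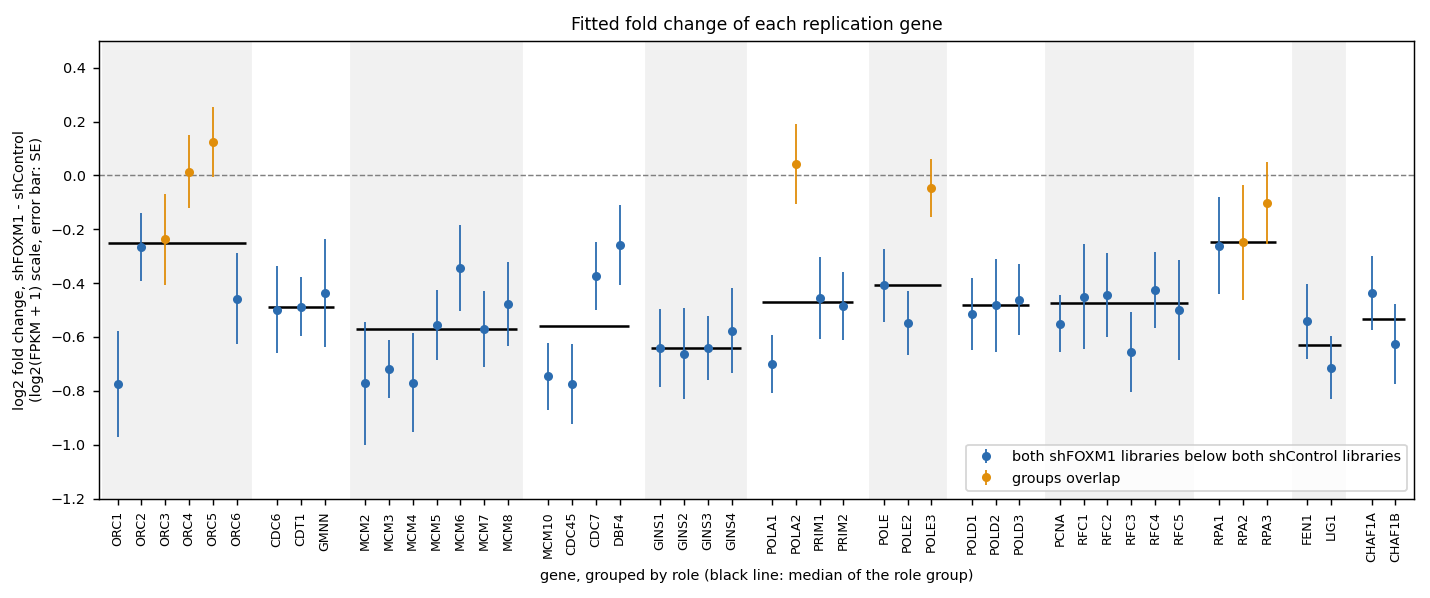
Fitted log2 fold change (shFOXM1 minus shControl, log2(FPKM + 1) scale) of each of the 47 genes with its SE, in role groups set apart by shading, the black line being the group's median. Blue marks genes whose groups do not overlap and orange those whose groups do; the GINS genes lie between -0.66 and -0.58, while the ORC genes spread from -0.77 to 0.12.

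The origin recognition complex held the widest spread of responses. ORC1, the ATPase subunit whose level follows the cell cycle, was at 23 and 19.9 FPKM in the shControl libraries and at 14.4 and 10.1 FPKM in the shFOXM1 libraries. Both knockdown libraries were low, shFOXM1 2 the more so, and the fitted log2 fold change was -0.77 (SE 0.20; limma, adjusted p = 0.195). ORC6, the smallest subunit, was at 6.49 and 6.58 FPKM in shControl and at 5.27 and 3.79 FPKM in shFOXM1, again without overlap.

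The core subunits ORC2 to ORC5, put together here after their values were seen, had a median log2 fold change of -0.11. ORC5 was at 7.93 and 7.08 FPKM in shControl and at 8.8 and 7.75 FPKM in shFOXM1, and ORC4 at 2.96 and 2.84 against 3.1 and 2.79 FPKM. ORC3 was at 10.6 and 9.39 against 9.6 and 7.2 FPKM. The groups overlapped for all 3, with ORC2 alone of the 4 having both shFOXM1 libraries low (5.84 ± 0.548 against 7.21 ± 0.229 FPKM in shControl; mean ± SD, n = 2 each). The ratio of ORC1 to ORC5, both per length, was 2.9 and 2.8 in the shControl pair and 1.64 and 1.3 in the shFOXM1 pair.

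The 3 genes that control licensing had nearly equal fold changes, from -0.50 to -0.44. CDC6, the ATPase that helps load the helicase, was at 23.9 and 23 FPKM in shControl and at 18.8 and 14.1 FPKM in shFOXM1. CDT1, which brings the helicase to the origin, was at 40 and 40.4 FPKM in shControl and at 29.9 and 26.9 FPKM in shFOXM1 (log2 fold change -0.49, SE 0.11; limma, adjusted p = 0.188). GMNN, encoding geminin, was at 17.1 and 17.8 against 15.4 and 10.3 FPKM. Each of the 3 had both shFOXM1 libraries below both shControl libraries, against 25.9% of all genes tested, though for GMNN shFOXM1 1 lay near the controls. The ratio of CDT1 to its inhibitor GMNN was 2.34 and 2.27 in the shControl pair and 1.95 and 2.6 in the shFOXM1 pair, so the groups overlapped.

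All 7 genes of the MCM family had both shFOXM1 libraries below both shControl libraries, against 25.9% of all genes tested. Their median log2 fold change was -0.57. MCM3 (chromosome 6, 52264009 to 52284881, minus strand), a subunit of the replicative hexamer, was at 133 and 125 FPKM in shControl and at 82.1 and 74.4 FPKM in shFOXM1 (log2 fold change -0.72, SE 0.11; limma, adjusted p = 0.173). MCM5, another subunit, was at 46.9 and 47.5 against 34.9 and 29 FPKM. MCM6 differed least in the family, at 64.2 and 51.8 FPKM in shControl and 49.5 and 41.3 FPKM in shFOXM1, where shControl 2 lay close to shFOXM1 1 (log2 fold change -0.34, SE 0.16).

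The other hexamer subunits MCM2, MCM4 and MCM7 were at 59.1, 58.9 and 67.5% of their shControl mean. MCM8, a relative that works in recombination rather than in the hexamer, was at 69.6%, and at 10.3 FPKM in shControl it stood below the 46.9 to 129 FPKM of MCM2 to MCM7. Within the hexamer, whose proteins assemble in equal numbers, the highest level per length (MCM3) was 2.84 and 2.77 times the lowest in the control libraries, and 2.42 and 3.45 times it after knockdown. The summed level of MCM2 to MCM7 was 472 and 444 FPKM in the shControl pair and 329 and 264 FPKM in the shFOXM1 pair.

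Among the firing factors CDC45 and MCM10 stood furthest from the controls. CDC45, which joins the MCM hexamer in the active helicase, was at 38.6 and 37.2 FPKM in shControl and at 24.6 and 19.3 FPKM in shFOXM1 (log2 fold change -0.77, SE 0.15; limma, adjusted p = 0.183). MCM10, an activator of that helicase, was at 13.6 and 13.1 against 7.02 and 8.13 FPKM, and here shFOXM1 1 was the lower library. MCM10 had the lowest level of all 47 genes relative to shControl, at 56.7%.

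The kinase that starts firing differed less. DBF4, its regulatory subunit, was at 11.2 and 12.2 FPKM in shControl and at 10.8 and 8.59 FPKM in shFOXM1, while the catalytic subunit CDC7 was at 74.9% of its shControl mean (log2 fold change -0.38, SE 0.13). For both genes the shFOXM1 libraries were below both shControl libraries, as for 25.9% of all genes tested, but shFOXM1 1 was close to shControl 1 for DBF4.

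GINS was the most even of the groups with more than 3 genes. GINS1 was at 19.5 and 16.7 FPKM in shControl and at 12.2 and 10.3 FPKM in shFOXM1, GINS3 at 8.28 and 7.87 against 4.62 and 5.04 FPKM, and GINS4 at 8.03 and 7.04 against 5.34 and 4.15 FPKM. With GINS2 at 61.8% of its shControl mean, all 4 subunits of the complex, which bridges CDC45 and the MCM ring, were between 59.8 and 63% of shControl. Their fold changes ran from -0.66 to -0.58, with SEs of 0.12 to 0.17, so they did not differ from each other beyond their errors.

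**Figure D3:**
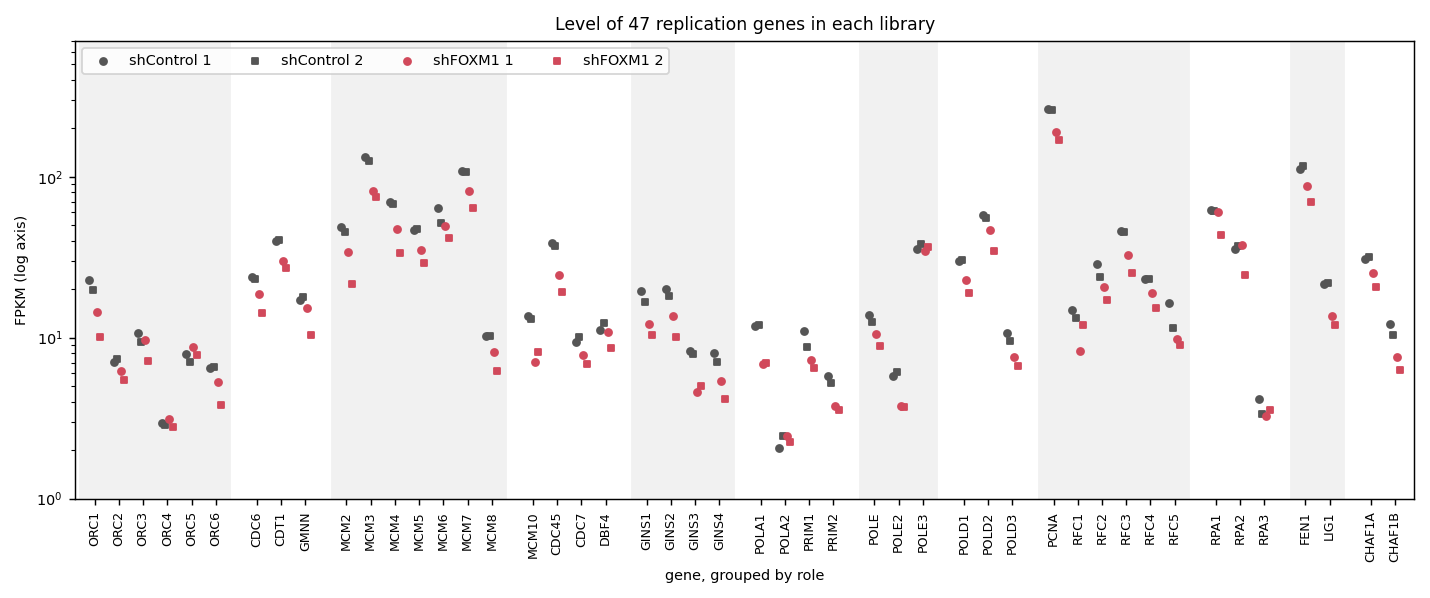
FPKM (log axis) of the 47 genes in each library, grouped by role in shaded bands, grey for shControl and red for shFOXM1, circles for library 1 and squares for library 2. PCNA is the highest (262 FPKM on average in shControl) and POLA2 the lowest (2.26 FPKM), and the red points lie under the grey ones for 40 genes.

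In polymerase alpha, which starts each new strand with an RNA primer, the catalytic subunit and its partner parted. POLA1 (chromosome X, 24693919 to 24996986, plus strand) was at 11.8 and 11.9 FPKM in shControl and at 6.89 and 6.92 FPKM in shFOXM1, close pairs in both groups (log2 fold change -0.70, SE 0.11; limma, adjusted p = 0.173). POLA2, the accessory subunit, was at 2.07 and 2.45 against 2.45 and 2.25 FPKM, with overlapping groups and a log2 fold change of 0.04 (SE 0.15). PRIM2, a primase subunit, was at 5.8 and 5.21 against 3.73 and 3.56 FPKM, and PRIM1, the other one, at 69.8% of its shControl mean.

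The ratio of POLA1 to POLA2 was 5.69 and 4.86 in the shControl pair and 2.81 and 3.08 in the shFOXM1 pair. POLA2 rests on at least 168 reads per library, so depth alone gives its values a wider error than those of POLA1, with at least 646. Of the exonic bases of POLA2, 35.1% are also annotated to AP000944.2 on the same strand, whose own reads came to 4.24% of those of POLA2. How reads in shared bases were assigned is not given, so whether POLA2 gained or lost reads there is not known.

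Polymerase epsilon, which copies the leading strand, showed the same kind of split. POLE, the catalytic subunit, was at 13.8 and 12.5 FPKM in shControl and at 10.5 and 8.88 FPKM in shFOXM1, and POLE2, which ties it to the helicase, at 5.75 and 6.08 against 3.77 and 3.69 FPKM. POLE3, a small histone-fold subunit also found in a chromatin remodelling complex, was at 35.6 and 38.3 against 34.6 and 36.8 FPKM. Both enzyme subunits were low in both shFOXM1 libraries, whereas POLE3 overlapped (log2 fold change -0.05, SE 0.11). The ratio of POLE3 to POLE2 was 6.19 and 6.29 in the shControl pair and 9.17 and 9.99 in the shFOXM1 pair.

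The 3 genes of polymerase delta, the enzyme of the lagging strand, had close fold changes from -0.52 to -0.46. POLD1, the catalytic subunit, was at 30 and 30.3 FPKM in shControl and at 22.9 and 18.9 FPKM in shFOXM1. POLD3 was at 10.7 and 9.57 against 7.57 and 6.65 FPKM. POLD2 was at 71.9% of its shControl mean. All 3 had both shFOXM1 libraries below both shControl libraries, against 25.9% of all genes tested.

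PCNA and its loader were lower throughout. PCNA (chromosome 20, 5114953 to 5126626, minus strand), the clamp that tethers polymerases to DNA, was the most abundant gene of the 47, at 262 and 261 FPKM in shControl and at 189 and 168 FPKM in shFOXM1 (log2 fold change -0.55, SE 0.11; limma, adjusted p = 0.183). RFC3 was at 45.9 and 45.5 against 32.4 and 25.3 FPKM, and RFC4 at 23.2 and 23 against 18.9 and 15.2 FPKM. The 5 RFC genes form the ring that opens the clamp. All 5 had both shFOXM1 libraries below both shControl libraries, against 25.9% of all genes tested, with a median log2 fold change of -0.45.

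RFC1, the large subunit of the loader, went against the other loader genes in how the knockdown libraries ordered, with a difference from the shControl mean of -0.69 in shFOXM1 1 and -0.21 in shFOXM1 2 on the log2 scale. RFC2 and RFC5 were at 72.5 and 67.7% of their shControl means. Their shControl libraries were further apart than those of RFC3 and RFC4, at 26.2 ± 3.57 FPKM for RFC2 and 13.9 ± 3.37 FPKM for RFC5 (SD, n = 2).

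RPA, the heterotrimer that coats single-stranded DNA at forks and at sites of repair, had a median of -0.25. At an unadjusted limma p under 0.05 it had 0 of 3 genes, where 8.99% of all genes tested were lower and 8.82% higher. RPA1 was at 62.1 and 61.1 FPKM in shControl and at 60.6 and 43.3 FPKM in shFOXM1, and RPA2 at 35.6 and 37 against 37.4 and 24.6 FPKM. RPA3 was at 4.16 and 3.33 against 3.24 and 3.57 FPKM. For RPA1 and RPA2 shFOXM1 1 stood at or near the control level and only shFOXM1 2 was low, and RPA2 and RPA3 overlapped between groups. With shFOXM1 2 left out RPA2 had a log2 fold change of 0.04, and with shFOXM1 1 left out RPA1 had -0.50 and RPA2 -0.54. PCNA, by contrast, was low in both shFOXM1 libraries, and its ratio to RPA1 was 4.22 and 4.28 in the shControl pair and 3.13 and 3.88 in the shFOXM1 pair.

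The enzymes that join lagging strand fragments were both low. LIG1, the ligase that seals them, was at 21.5 and 21.7 FPKM in shControl and at 13.6 and 12 FPKM in shFOXM1 (log2 fold change -0.71, SE 0.12; limma, adjusted p = 0.176). FEN1, the nuclease that trims the flap before ligation, was at 111 and 117 against 87 and 69.7 FPKM. CHAF1A and CHAF1B, which as CAF-1 deposit histones on new DNA, were at 30.9 and 31.6 against 25.3 and 20.5 FPKM and at 12.1 and 10.3 against 7.54 and 6.27 FPKM. All 4 of these genes had both shFOXM1 libraries below both shControl libraries, against 25.9% of all genes tested.

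The shFOXM1 libraries were not alike in these genes. Of the 47 genes, 41 were lower in shFOXM1 2 than in shFOXM1 1, with a median difference of -0.26 on the log2 scale, where all genes tested had a median of -0.03 and 53.3% were lower. FOXM1 was also lower in shFOXM1 2. Mitochondrial genes took 4.98% of reads in shFOXM1 2 against 5.72% in shFOXM1 1 and 5.93 and 5.88% in shControl. The library size implied by the FPKM scaling differed from the recovered reads by 3.8% in shFOXM1 2 and -1.44% in shFOXM1 1. In shControl 1 and 2 it differed by 0.319 and -0.173%. The part of any of these in the differences between the shFOXM1 libraries was not tested. The 6 exceptions were MCM10, GINS3, POLA1, POLE3, RFC1 and RPA3. Against the shControl mean the median of the 47 was -0.38 in shFOXM1 1 and -0.59 in shFOXM1 2, with 43 and 46 genes under it, while shControl 2 lay a median of -0.05 from shControl 1.

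**Figure D4:**
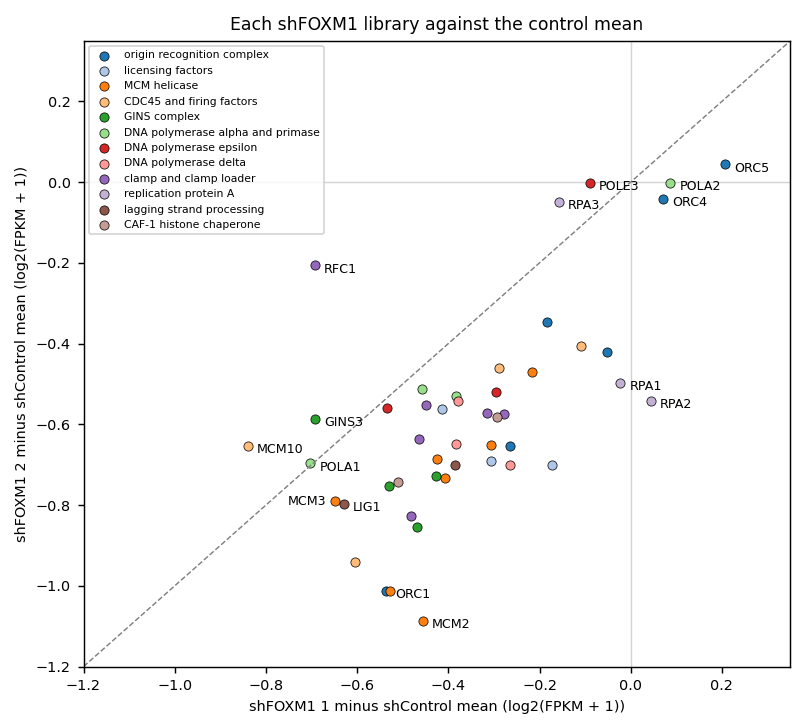
Difference of each shFOXM1 library from the shControl mean for the 47 genes (log2(FPKM + 1) scale; x axis shFOXM1 1, y axis shFOXM1 2; colours: role groups; dashed line: equal values). Most points lie under the dashed line, 6 lie above it, and RPA1 and RPA2 are near 0 on the x axis only.

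Set side by side, median fold changes by role group ran from -0.25 for RPA and for ORC, through -0.41 for polymerase epsilon, -0.47 for polymerase alpha with primase, -0.48 for the clamp and loader, -0.48 for polymerase delta, -0.49 for licensing and -0.53 for CAF-1, to -0.56 for the firing factors, -0.57 for the MCM family, -0.63 for the lagging strand enzymes and -0.64 for GINS. These values depend on the library: the RPA median was -0.02 in shFOXM1 1 and -0.50 in shFOXM1 2, the ORC median -0.12 and -0.38, and the polymerase epsilon median -0.30 and -0.52. With genes under a mean of 5 FPKM left out the polymerase epsilon median was -0.23 and that of polymerase alpha with primase -0.58. The order of the groups is therefore a description of the 4 libraries together under the main settings. Differences between role groups were not tested, since members of a complex are not replicates.

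Levels in shControl also differed between genes, per length, from 2.26 FPKM for POLA2 to 262 FPKM for PCNA, with a median of 18.1 FPKM. Across the 47 genes the level correlated with the log2 fold change at a Spearman rho of -0.37 and a Pearson r of -0.41 (n = 47 genes of the same 4 libraries, given as a description). The pseudocount makes fold changes of low genes smaller, and its part in this correlation was not tested. The length used is that of all annotated exons of a gene joined, which sets the level. It cancels in a ratio of FPKM between libraries, but not fully in the fitted fold change, because of the pseudocount. The median log2 fold change of the 47 was -0.48 in the main fit and -0.54 at a pseudocount of 0.01.

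Other genes of replication, from a list of 38 kept apart from the 47, went mostly the same way. Of 36 tested, 29 had a lower mean in shFOXM1 and 7 a higher one; the median log2 fold change was -0.38, and 27 had both shFOXM1 libraries below both shControl libraries. That is 75% of them, against 25.9% of all genes tested. By limma 0 were called, and at an unadjusted p under 0.05 19 were lower and 1 was higher, where 8.99% of all genes tested were lower and 8.82% higher. CLSPN (claspin, a mediator of the replication checkpoint at forks) averaged 13.1 ± 0.278 FPKM in shControl and 7.49 ± 0.0463 FPKM in shFOXM1, TIMELESS (of the fork protection complex) at 19.6 ± 0.32 and 13 ± 0.283, NASP (a histone chaperone) at 27.3 ± 0.157 and 17.5 ± 1.62, and ASF1B (another one) at 89.9 ± 0.00464 and 50.7 ± 7.34 FPKM (n = 2 each).

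Some of this list had higher means. POLD4, the smallest subunit of polymerase delta, averaged 2.62 ± 0.169 FPKM in shControl and 4.1 ± 0.811 FPKM in shFOXM1, against the lower means of POLD1, POLD2 and POLD3. LRWD1, which binds ORC at chromatin, was at 4.88 ± 0.732 and 6.45 ± 0.233 FPKM, and ASF1A at 10.1 ± 0.432 and 14.4 ± 5.15 FPKM, opposite in sign to its paralogue ASF1B. These 3 are among 5 of the 36 genes, or 13.9%, with both shFOXM1 libraries above both of shControl, a smaller share than the 27.3% of all genes tested.

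Genes of neighbouring functions give the setting. Of 10 genes of deoxynucleotide supply 9 had both shFOXM1 libraries under both of shControl, against 25.9% of all genes tested, with a median of -0.43. By limma 5 of them were lower at an unadjusted p under 0.05, as were 8.99% of all genes tested. The 9 include SAMHD1, a deoxynucleotide hydrolase, at 95.2% of its shControl mean. In this list TK1 (thymidine kinase) was at 91.8 ± 3.25 and 43.7 ± 1.61 FPKM and DUT at 41 ± 2.79 and 24.9 ± 2.1 FPKM, while RRM2B, the p53-induced reductase subunit, was at 15.8 ± 0.337 and 21.1 ± 6.59 FPKM. Of 24 mitosis genes 23 were placed that way, against the same 25.9%, with a median of -0.53, CCNB2 (cyclin B2) being at 26 ± 1.52 and 14.9 ± 0.44 FPKM. These lists share the 4 libraries with the 47 genes, and no difference between lists was tested.

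Some values could hold reads of neighbours or lack reads of shared bases. Exons of 21 of the 47 genes share bases with another gene's exons, and in 12 of them the partner had over 10% as many reads as the member; whether the counting used strand was not stated. The shared stretch was 33 bases for PRIM1 with NACA and 21 bases for RFC4 with EIF4A2, both partners being far more abundant. Longer stretches included 430 and 157 bases for ORC4 with ACVR2A and MBD5, whose reads came to 21.1 and 34.2% of its own. RFC5 shared 186 bases with WSB2 (150% of its reads), and FEN1 shared 166 bases with TMEM258 (17.1%). Pseudogenes named after 7 of the genes took at most 0.658% as many reads as their parent, the most being DBF4P1.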

How the data were processed

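The authors deposited FPKM for 58735 genes in 4 libraries, with each gene's length, per the file headers. How reads were aligned and counted, and with what strand setting, is not given in the sources used here. GRCm38 and mm10 are the builds in the submitters' processing notes, whereas all 58735 coordinates in the table equal human GENCODE 29 (GRCh38) and its gene lengths (the other column used, as deposited by the authors) equal the joined exons. There were 0 columns of other samples. The columns named sh0 were read as shControl, and sh1 and sh2 as shFOXM1. FPKM times length gave whole reads for 100% of values above 0 within 0.001 read. Depth was 14147084, 14778639, 15017728 and 14680094 reads in shControl 1 and 2 and shFOXM1 1 and 2, and each of the 47 genes had at least 155 reads in every library.

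Genes reaching 1 FPKM in 2 or more libraries (12033, all 47 members among them) were fitted with limma 3.58.1 in R 4.3.3 on log2(FPKM + 1), empirical Bayes with a trend, two-sided, with Benjamini-Hochberg adjustment over all of them and a threshold of 0.05. With 2 libraries a side, no exact two-sided permutation p can be below 0.333, so none is given. The fit was tested on simulated data. By rule, values in every library are given for FOXM1 and, in each role group, for the 2 members with the smallest unadjusted p, the one with the smallest absolute fold change, and every member with a higher mean in shFOXM1 or overlapping groups. From each list of other genes, at most 4 with the smallest unadjusted p and 3 with a higher mean are named. Ratios between genes were chosen after the values were seen. Members and lists were chosen with earlier results of these data known. The 15 alternatives were other pseudocounts, filters, scalings and empirical Bayes settings, a replicate block, voom on recovered reads, and each library left out.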

Additional observations from a re-analysis of the deposited data

How the results depend on the processing

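Over the alternatives the median log2 fold change of the replication genes ran from -0.59 to -0.38, the ends being the fits without shFOXM1 1 and without shFOXM1 2. Limma or voom called 0 of them lower and 0 higher, except that leaving out single libraries gave 0 to 36 called lower. Over all genes, leaving out single libraries gave 0 to 1744 called lower and 0 to 1360 higher, and voom with library weights called 9 lower and 17 higher; calls made without 1 shFOXM1 library assume that the remaining one varies like the shControl pair. Of 520 values of the 35 genes given per library, 476 kept their sign and their call, 37 became calls and 7 turned direction. All 7 came from leaving out single libraries, under which the log2 fold change ran from -0.0425 to 0.0708 for ORC4 (negative without shControl 2 or shFOXM1 1), -0.0432 to 0.1266 for POLA2 (negative without shControl 1 or shFOXM1 1), -0.0975 to 0.0057 for POLE3 (positive without shControl 2), -0.5417 to 0.0446 for RPA2 (positive without shFOXM1 2) and -0.2298 to 0.0228 for RPA3 (positive without shControl 1); the cause was not tested. Scaling by recovered reads moved the median of all genes to 0.01. Libraries with the same number shared little deviation (correlation 0.0421 across genes, 2 pairs). With 1 difference per group, that value cannot show whether libraries of the same number were handled together. In the fit with a replicate block the median of the replication genes was -0.48 and limma called 0. Of 180 role group medians 164 moved by less than the spread between replicates, 16 by more and 0 turned direction. Where genes had to reach a mean of 5 FPKM, polymerase epsilon went to -0.23 and polymerase alpha with primase to -0.58. RPA went to -0.50 without shFOXM1 1.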
